A study of Rattus norvegicus with 8 samples.

Results

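Neurons that release GABA, the main inhibitory transmitter of the forebrain, carry a small set of genes that set them apart, and 8 of these were followed here in newly made RNA: Gad1, Gad2 and Slc32a1, which make GABA and load it into vesicles, and Dlx1, Dlx2, Dlx6, Lhx6 and Erbb4, which mark the interneuron lineage. They were chosen by symbol among the 16871 gene symbols of the deposited count table. Of the 8, 7 had a row, 3 of the first kind and 4 of the second; Dlx6 was not analysed here. All 7 passed the filter on low counts, as did 11372 genes in all.

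The cells were co-cultures of cortical and hippocampal neurons from newborn Sprague Dawley rats, although the sample titles name hippocampal neurons alone. Cultures received vehicle (H2O) or 1 µM tetrodotoxin (TTX), a sodium channel blocker that stops neurons from firing. The first treatment began on day 14 in vitro and lasted 24 h, and the second, after 48 h of washout, was given on day 17 for 4 h. Bromouridine (BrU, 2 mM), a uridine analogue that newly made transcripts take up, was present for the last 30 min, and labelled RNA was captured and sequenced. Each of the 4 groups has 2 libraries and a name of 2 letters, 1 per treatment in order (H, vehicle; T, TTX). HH received vehicle both times, HT vehicle and then TTX, TH TTX and then vehicle, and TT received TTX both times. All groups went through the same washout and BrU labelling. Whether the replicates were separate cultures or litters is not in the labels, and the p-values below therefore reflect the spread among 8 libraries, part of which may be technical.

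GABA is made from glutamate by glutamate decarboxylase. Gad1 encodes GAD67, the form spread through the whole cell that supplies most basal GABA, and Gad2 encodes GAD65, which sits mainly at nerve endings and supports transmitter release. Slc32a1 encodes VGAT, the transporter that fills synaptic vesicles with GABA or glycine. Dlx1 and Dlx2 encode homeodomain factors that direct precursors of the ganglionic eminences towards GABAergic fates, Lhx6 encodes a LIM homeodomain factor needed by interneurons of the medial ganglionic eminence, and Erbb4 encodes the neuregulin receptor that many cortical interneurons carry. Expression of Gad1 in cortical interneurons is known to depend on activity.

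The sequences before the starts of the GABA genes are shown because Gad1 and Gad2 took similar positions across libraries while Slc32a1 did not. They were taken from RefSeq's promoter windows on build GRCr8 (6 of the 8 genes had a window), in the 5′ to 3′ direction of the gene, and only bases before the annotated start of the gene are printed. The counts were made on build rn6, so these positions are not those of the count table. Gad1 lies on the + strand, with 58 bases at chr3:75777202-75777259. Gad2 lies on the + strand, with 250 bases at chr17:89671468-89671717, and Slc32a1 on the + strand, with 250 bases at chr3:167686995-167687244. Capitals mark matches to the motifs searched.
Gad1: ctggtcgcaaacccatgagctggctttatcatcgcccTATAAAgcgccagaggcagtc
Gad2: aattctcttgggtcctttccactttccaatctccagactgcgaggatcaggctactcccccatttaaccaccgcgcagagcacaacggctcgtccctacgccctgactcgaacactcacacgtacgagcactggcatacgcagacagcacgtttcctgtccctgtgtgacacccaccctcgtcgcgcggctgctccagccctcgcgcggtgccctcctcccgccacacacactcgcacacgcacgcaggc
Slc32a1: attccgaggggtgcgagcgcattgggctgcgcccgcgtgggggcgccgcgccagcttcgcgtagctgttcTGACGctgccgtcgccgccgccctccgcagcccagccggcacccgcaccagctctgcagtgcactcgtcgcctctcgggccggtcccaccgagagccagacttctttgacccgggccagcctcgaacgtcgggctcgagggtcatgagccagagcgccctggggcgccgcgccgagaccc

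Both strands of each 250-base window were searched for the full cAMP response element TGACGTCA, its core TGACG (which the full element contains), the AP-1 site TGANTCA, the homeodomain core TAATTA and, added after the sequences had been read, TATAAA. The core TGACG was found once in the Slc32a1 window, 180 bases before the annotated start, and is held by 18.2% of all 33469 windows of this length. TATAAA was found once in the Gad1 window, 21 bases before the annotated start, and is held by 12.9% of all windows. The full element (1.59% of windows), the AP-1 site (6.34%) and TAATTA (4.86%) were found in none of the 6 windows, nor was any motif found in the windows of Gad2, Dlx1, Lhx6 and Erbb4. Not all searched bases lay before the annotated gene start. Of 250 bases, 58 did so for Gad1, 223 for Erbb4 and 0 for Lhx6, and the rest lay inside the annotated gene. The searched windows of the 3 GABA genes were rich in G and C, at 68.4% for Gad1, 62.0% for Gad2 and 73.6% for Slc32a1 against a median of 51.2%. These matches are descriptions of letters, and their part in the levels below was not tested.

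Libraries held 3489176 to 4959887 counts, and levels are given as CPM, a count scaled to a common library total. Replicates of every group differed beyond sampling noise (chi-square per degree of freedom from 4.00 to 11.1) and were kept as separate libraries. HH replicate 1 stood apart: it held 37.0 CPM of Fos and 53.0 CPM of Npas4, genes that firing neurons switch on, against 5.74 to 11.6 and 1.97 to 9.57 CPM in the other 7 libraries. The 14 activity response genes summed to 1588 CPM there, against 504 to 565 CPM in the other 3 vehicle libraries and 474 to 693 CPM in the TTX libraries. In the averaged second TTX 14 of 14 lay below 0 (median -0.69), but 8 of 14 without HH replicate 1 (median -0.092), and none passed in either fit. This library held the highest value of 21.6% of all tested genes, so differences between groups that rest on HH are also given without it. The labelled cell type was checked against its markers: all 10 pan-neuronal and all 13 excitatory markers with a row passed the filter. So did 10 of 10 astrocyte markers, 10 of 12 of the oligodendrocyte lineage and 10 of 10 of dividing cells, against 3 of 8 for microglia. The filter was passed by 67.4% of all rows, so passing it does not by itself identify a cell type.

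**Figure D1:**
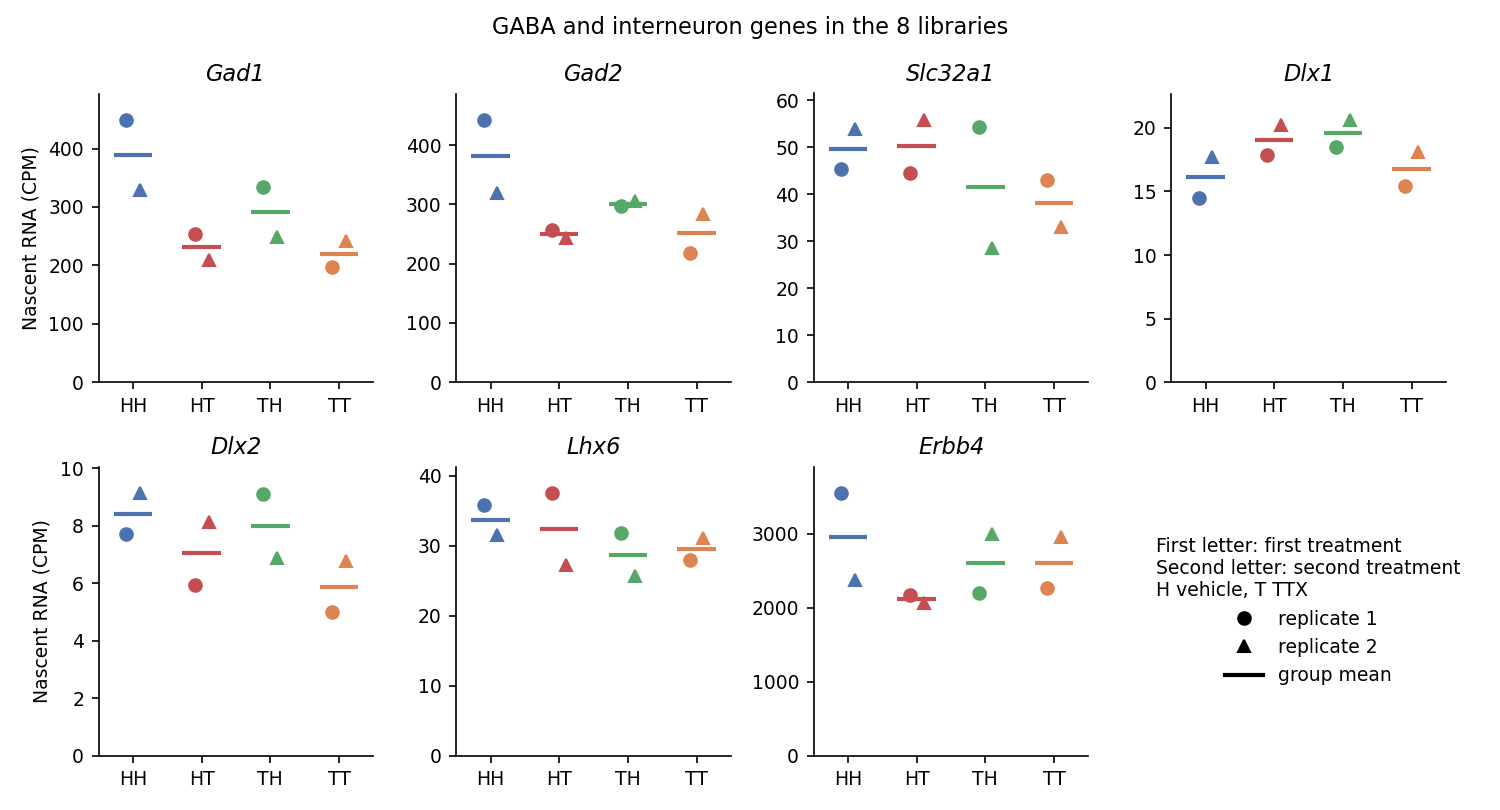
Nascent RNA in CPM (vertical axes, from 0, scaled for each gene) of the 7 genes with a row in the 4 groups (horizontal axes); circles are replicate 1, triangles replicate 2 and lines group means of 2 libraries. Gad1 and Gad2 are highest in HH, with HH replicate 1 at 449 and 443 CPM, and the vehicle and TTX libraries of Gad2 do not overlap.

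Both GABA synthesis genes were lower in the libraries given the second TTX, but neither difference passed the threshold over all genes tested. Gad1 stood at 449 and 329 CPM in HH (replicates 1 and 2), 253 and 209 in HT, 335 and 248.5 in TH, and 198 and 242 in TT. The vehicle libraries thus ran up to 449 CPM and the TTX libraries from 198 to 253, with TH replicate 2 just below HT replicate 1 so that the arms overlapped. Averaged over history, Gad1 stood at -0.58 ± 0.14 (log2 fold change ± SE, 95% confidence interval -0.89 to -0.27, 4 libraries against 4), which is 33.0% below vehicle, at an adjusted p of 0.284 (edgeR quasi-likelihood test, Benjamini-Hochberg). Across the alternative analyses its adjusted p ran from 0.0528 to 0.840, with DESeq2 at 0.0721. Without HH replicate 1 the value was -0.46, at an adjusted p of 0.332 (edgeR).

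Gad2 stood at 443 and 320 CPM in HH, 257 and 243 in HT, 298 and 305 in TH, and 218 and 284 in TT. All 4 vehicle libraries (298 to 443 CPM) lay above all 4 TTX libraries (218 to 284 CPM), a separation in this direction found in 1.64% of the 11372 tested genes. Its averaged change was -0.44 ± 0.12 (95% confidence interval -0.70 to -0.17), or 26.1% below vehicle, at an adjusted p of 0.345 (edgeR; 0.0599 to 0.865 over the alternatives), and -0.31 without HH replicate 1. In TH the replicates of Gad2 lay close together, whereas those of Gad1 differed 1.35-fold.

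No member passed in any of the 7 comparisons (edgeR; DESeq2 and limma-voom also called 0 of the 7 members in each), and no gene of the 11372 did, so the background of calls was 0% in each of the 7 comparisons. At an unadjusted p under 0.05, the averaged second TTX held 2 of the 7 members, Gad1 and Gad2, both lower. That was 2.59% of all genes for lower values and 6.94% for either direction. HT against HH held the same pair (2.73% of all genes lower, 6.49% in either direction). TT against TH, TH against HH, TT against HT, the interaction and the averaged history held none of the 7, where 2.64%, 4.08%, 2.35%, 1.64% and 5.75% of all genes did. The members were chosen with earlier results of these data known, and earlier results had already named Gad1 and Gad2 as lower.

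Slc32a1, the vesicle transporter, showed no such order of the libraries. It stood at 45.3 and 54.0 CPM in HH, 44.5 and 55.9 in HT, 54.4 and 28.5 in TH, and 43.1 and 33.1 in TT. Vehicle libraries (28.5 to 54.4 CPM) and TTX libraries (33.1 to 55.9 CPM) overlapped over most of their range, and TH held both a high and the lowest library. The averaged difference was -0.049 ± 0.20 (95% confidence interval -0.50 to 0.41), an interval that holds the value of Gad2 but not that of Gad1, and -0.11 without HH replicate 1. Whether Slc32a1 differed from the Gad genes was not tested. With 141 to 207 counts per library, Slc32a1 was also measured with fewer counts than Gad1 (745 to 1457) and Gad2 (865 to 1507).

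**Figure D2:**
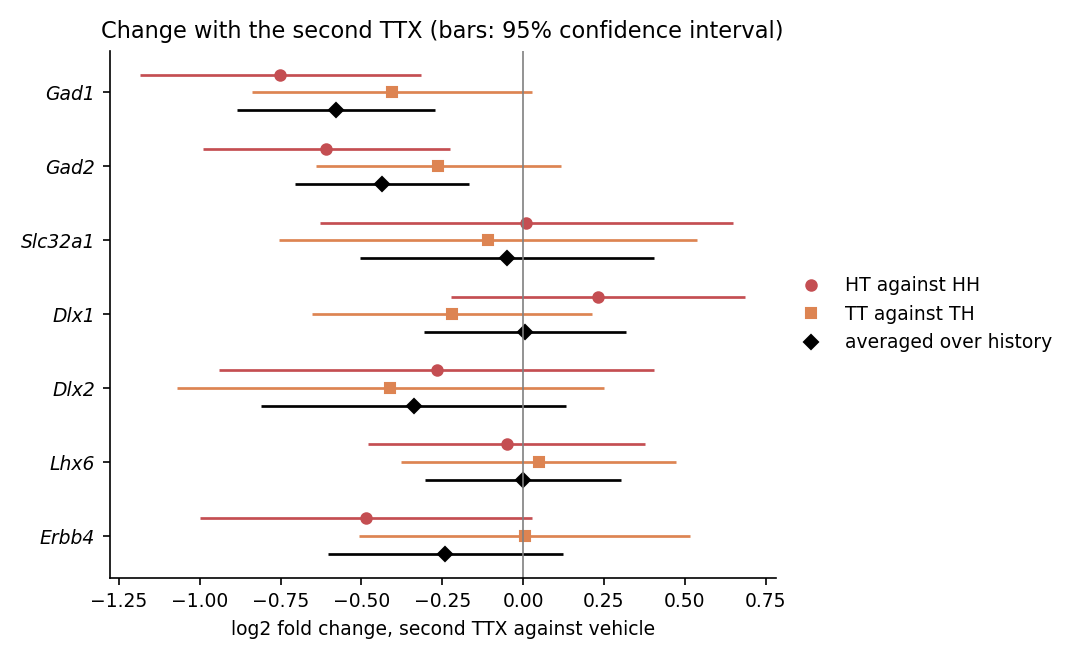
Log2 fold change with the second TTX (horizontal axis) for each gene (vertical axis), in cultures without earlier TTX (HT against HH, circles), with it (TT against TH, squares) and averaged over history (diamonds); bars are 95% confidence intervals from the edgeR fit. The averaged intervals of Gad1 (-0.89 to -0.27) and Gad2 (-0.70 to -0.17) lie below 0 before adjustment over all genes, and those of the other 5 genes span 0.

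Among the lineage genes, no averaged interval lay clear of 0. Dlx1 stood at 14.5 and 17.7 CPM in HH, 17.9 and 20.2 in HT, 18.5 and 20.6 in TH, and 15.4 and 18.1 in TT. HH replicate 1, the highest library for Gad1 and Gad2, was the lowest for Dlx1, and the highest library exceeded it only 1.42-fold. The averaged difference was 0.0057 ± 0.14 (95% confidence interval -0.31 to 0.32) and -0.062 without HH replicate 1. Dlx2, which lies beside Dlx1 on the same chromosome, had 20 to 35 counts per library and was the least precisely measured member. It stood at 7.71 and 9.13 CPM in HH, 5.95 and 8.14 in HT, 9.12 and 6.88 in TH, and 4.98 and 6.77 in TT. Its averaged difference was -0.34 ± 0.21 (95% confidence interval -0.81 to 0.13; -0.39 without HH replicate 1), with overlapping libraries.

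Lhx6 stood at 35.8 and 31.6 CPM in HH, 37.5 and 27.2 in HT, 31.8 and 25.7 in TH, and 27.9 and 31.1 in TT. The highest and lowest libraries differed 1.46-fold, and vehicle and TTX libraries overlapped. The averaged difference was -0.0013 ± 0.14 (95% confidence interval -0.30 to 0.30) and 0.044 without HH replicate 1.

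Erbb4 had by far the most counts of the 7, from 7331 to 14824 per library. It stood at 3544 and 2373 CPM in HH, 2167 and 2058 in HT, 2204 and 2991 in TH, and 2259 and 2953 in TT. In HH the replicates differed 1.49-fold, and in TH and TT replicate 2 was the higher, so that replicates lay apart in 3 of the 4 groups. The averaged difference was -0.24 ± 0.17 (95% confidence interval -0.60 to 0.12) and -0.083 without HH replicate 1.

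Whether the response depended on history was asked by setting the change in HT against HH beside that in TT against TH, which share no library. In cultures without earlier TTX, Gad1 stood at -0.75 ± 0.20 (adjusted p = 0.610, edgeR) and Gad2 at -0.61 ± 0.17 (adjusted p = 0.637, edgeR), 40.6% and 34.4% below vehicle. In cultures silenced before, Gad1 stood at -0.41 ± 0.20 and Gad2 at -0.26 ± 0.17 (adjusted p = 1.00 for each, edgeR), 24.5% and 16.6% below. The interaction, the difference between these responses, was 0.34 ± 0.28 for Gad1 (95% confidence interval -0.27 to 0.96) and 0.35 ± 0.24 for Gad2 (-0.19 to 0.88), and passed for neither (adjusted p = 1.00 for each, edgeR). Without HH replicate 1, HT against HH stood at -0.51 for Gad1 and -0.35 for Gad2, and the interaction at 0.094 and 0.082. With all libraries, Gad1, Gad2 and Dlx2 lay below 0 in both responses, that is 3 of the 7, against 28.3% of all tested genes. Without HH replicate 1, Slc32a1 (-0.10 and -0.11) and Erbb4 (-0.16 and -0.0025) lay below 0 in both as well. The share of all genes without that library is not given here.

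The interaction passed for none of the other 5 members either. Erbb4 stood at -0.49 ± 0.23 in HT against HH, and at -0.16 without HH replicate 1, against 0.0047 ± 0.23 in TT against TH (interaction 0.49 ± 0.33, and 0.16 without that library). Dlx1 stood at 0.23 ± 0.21 and -0.22 ± 0.20, with an interaction of -0.45 ± 0.29 (-0.33 without that library). Slc32a1 stood at 0.01 ± 0.28 and -0.11 ± 0.28, Dlx2 at -0.27 ± 0.31 and -0.41 ± 0.30, and Lhx6 at -0.051 ± 0.20 and 0.048 ± 0.19. Without HH replicate 1, HT against HH stood at -0.10 for Slc32a1, 0.10 for Dlx1, -0.38 for Dlx2 and 0.044 for Lhx6. In HT against HH the libraries of the arms did not overlap for Gad1, Gad2 and Erbb4, all lower (16.7% of all tested genes), and for Dlx1, higher (18.6% of all tested genes). In TT against TH they did not overlap for Gad1, Gad2, Dlx1 and Dlx2, all lower (14.1% of all tested genes).

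An earlier silence by itself was examined by TH against HH and, under the second TTX, by TT against HT. In TH against HH, Gad1 stood at -0.42 ± 0.20 and Gad2 at -0.34 ± 0.17 (adjusted p = 0.891 for each, edgeR), and without HH replicate 1 at -0.17 and -0.081. In TT against HT, Gad1 stood at -0.072 ± 0.20 and Gad2 at 0.0078 ± 0.17, so that both genes had nearly the same mean in the groups given TTX last, 231 and 220 CPM for Gad1 in HT and TT and 250 and 251 CPM for Gad2. The other members lay further from 0, with Slc32a1 at -0.40 ± 0.28 and Erbb4 at 0.30 ± 0.23. Dlx1 stood at -0.17 ± 0.20, Dlx2 at -0.24 ± 0.31 and Lhx6 at -0.13 ± 0.19. Averaged over the second treatment, history stood at -0.24 ± 0.14 for Gad1, -0.17 ± 0.12 for Gad2 and -0.34 ± 0.20 for Slc32a1. It stood at 0.052 ± 0.14 for Dlx1, -0.17 ± 0.22 for Dlx2, -0.18 ± 0.14 for Lhx6 and 0.058 ± 0.17 for Erbb4. Without HH replicate 1 these values were -0.13, -0.040 and -0.41 for the GABA genes and -0.015, -0.23, -0.14 and 0.21 for the lineage genes. With all libraries the 7 adjusted p lay between 0.814 and 0.966 (edgeR).

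**Figure D3:**
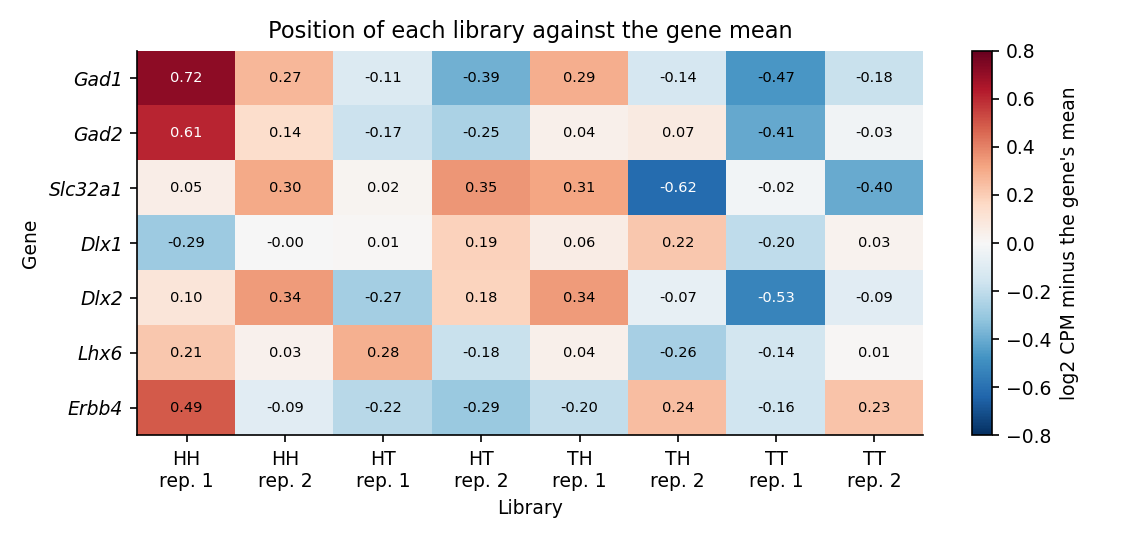
Each gene's log2 CPM minus its mean over the 8 libraries (colour and printed value), genes in rows and libraries in columns. HH replicate 1 is at 0.72 for Gad1, 0.61 for Gad2 and 0.49 for Erbb4, but at 0.05 for Slc32a1 and -0.29 for Dlx1.

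Over the 8 libraries, Gad1 and Gad2 had a Pearson correlation of 0.93 in log2 CPM, a description in which depth, scaling and the high HH replicate 1 are shared. Gad1 correlated at 0.60 with Lhx6, 0.59 with Dlx2, 0.52 with Erbb4, 0.24 with Slc32a1 and -0.43 with Dlx1. The Gad1 to Gad2 count ratio, which no scaling touches, lay between 0.815 in TH replicate 2 and 1.124 in TH replicate 1. The counts of each Gad gene were also divided by those of each of the other 5 members, 10 ratios in all. Of these, 2 had no overlap between vehicle and TTX libraries, both with Lhx6 below. Gad1 per Lhx6 count was 9.67 to 12.6 with vehicle and 6.74 to 7.78 with TTX, and Gad2 per Lhx6 count 9.37 to 12.4 and 6.85 to 9.13. These ratios were picked out after their values were seen and were not tested. How many other genes would keep the arms apart as divisors was not counted. The vehicle and TTX libraries of Gad2 did not overlap before any division.

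Members and placeholder symbols (LOC, RGD, AABR and ENSRNOG) were left out of the lists of most similar genes. The tested genes most like Gad1 over the 8 libraries were then Snrpb (Pearson correlation 0.97), a spliceosome component, Hsph1 (0.97), a heat shock protein, Sp7 (0.96), Ppp2cb (0.96), a catalytic subunit of protein phosphatase PP2A, and Kat7 (0.96), a histone acetyltransferase. Sp7 held only 1.49 to 5.55 CPM. Gad2 itself ranked at place 40 in likeness to Gad1 among all tested genes, placeholder symbols included. The genes most like Dlx1 were Lrp3 (0.96), Pgap3 (0.95), Thap6 (0.95), P3h3 (0.95) and Mrm1 (0.93). Those most like Erbb4 were Slc25a32 (0.98), Pcmtd1 (0.97), Grm8 (0.97), a metabotropic glutamate receptor, Zfp608 (0.96) and Cdk14 (0.95). For Gad2, looked at after the values were seen, they were Ablim3 (0.99), the sterol genes Cyp51 (0.98), Msmo1 (0.98) and Insig1 (0.98), and Igf1 (0.96).

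The rest of the GABA pathway was read from a fixed list. Of 12 genes of GABA uptake, breakdown and precursor supply, 10 were tested, and none passed. In the averaged second TTX 9 lay below 0 and 1 above, with a median of -0.076, against a median of -0.0011 over all tested genes, of which 50.3% lay below 0. Without HH replicate 1, 7 lay below and 3 above 0, with a median of -0.021. Slc6a11, a GABA transporter found mainly on astrocytes, stood at 0.075 ± 0.096. Glul, the glutamine synthetase of astrocytes, stood at -0.066 ± 0.092. Smallest in p were Gls2 (-0.37 ± 0.37) and the glutamine transporters Slc38a1 (-0.14 ± 0.12) and Slc38a2 (-0.094 ± 0.11). With HH replicate 1 left out the values were 0.050 for Slc6a11, -0.098 for Glul, 0.079 for Gls2, -0.0091 for Slc38a1 and -0.042 for Slc38a2.

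Other lineage factors gave a median of 6.5e-05 (0.0018 without HH replicate 1), with 10 above and 9 below 0 among 19 tested of 22, and none passed. Sox6, a factor of medial ganglionic eminence interneurons that is also present in oligodendrocyte progenitors, stood at 0.42 ± 0.14 (adjusted p = 0.497, edgeR), with 883 to 1296 CPM in vehicle and 1131 to 1503 in TTX libraries. Over the same libraries the markers of the oligodendrocyte lineage summed to 513 to 697 CPM with vehicle and 725 to 901 CPM with TTX, and their part in the value of Sox6 was not tested. Etv1 stood at -0.24 ± 0.14. Zeb2 stood at -0.064 ± 0.11, Elfn1 at -0.16 ± 0.095 and Satb1 at 0.033 ± 0.17. Leaving out HH replicate 1 gave 0.45 for Sox6, -0.068 for Etv1, -0.0081 for Zeb2, -0.19 for Elfn1 and 0.17 for Satb1.

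Genes of interneuron subtypes lay below 0 in 16 of 16 tested members (of 22 listed) in the averaged second TTX, with a median of -0.28, and none passed. The list summed to 5873 CPM in HH replicate 1 against 2996 to 3737 in the other 7 libraries. Without that library, 18 were tested, of which 13 lay below and 5 above 0, with a median of -0.14. Of the 10 pan-neuronal markers, 9 lay below 0 in the averaged second TTX (median -0.13), and 8 without HH replicate 1 (median -0.12). Of the 13 excitatory markers, 8 and 9 lay below 0 (medians -0.022 and -0.082). Whether the subtype genes differed from these lists was not tested. Crhbp, a binding protein for corticotropin-releasing hormone, stood at -1.13 ± 0.47 and Npy, a neuropeptide, at -0.76 ± 0.41. Nxph1 stood at -0.29 ± 0.14, Reln at -0.28 ± 0.34, Adarb2 at -0.17 ± 0.25 and Cnr1, a cannabinoid receptor, at -0.037 ± 0.092. With that library left out, Crhbp stood at -0.89, Npy at -0.60 and Nxph1 at -0.14, whereas Reln (0.15) and Adarb2 (0.18) lay above 0 and Cnr1 stood at -0.0014. Pvalb, which marks fast-spiking interneurons and is named here after its values were seen, had only 7 counts in all 8 libraries and was not tested.

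Erbb4 was read beside a list of neuregulins, ErbB receptors and other ligands of the EGF family (Btc, Hbegf, Ereg, Egf and Tgfa). The genes tested were Nrg1, Nrg2, Egfr, Erbb2, Erbb3, Hbegf, Egf and Tgfa, so Nrg3 was not among them. Of 12 listed, 8 were tested and none passed, with 5 below and 3 above 0 in the averaged second TTX and a median of -0.091. When HH replicate 1 was left out, 9 were tested, 4 below and 5 above 0, with a median of 0.022. Nrg1, a ligand of Erbb4, stood at -0.35 ± 0.13 and Nrg2, another, at -0.24 ± 0.088 (adjusted p = 0.586 and 0.607, edgeR). All 4 vehicle libraries of Nrg2 (260 to 312 CPM) lay above the 4 TTX libraries (236 to 250 CPM), while those of Nrg1 overlapped (809 to 1288 and 637 to 890 CPM). Of all tested genes, 1.64% separated in the direction of Nrg2. Egfr stood at -0.012 ± 0.12, Tgfa at 0.068 ± 0.11 and Erbb3, at 96 counts in all, at 0.73 ± 0.34. Leaving out that library gave -0.26 for Nrg1, -0.20 for Nrg2, 0.039 for Egfr, 0.024 for Tgfa and 0.72 for Erbb3.

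**Figure D4:**
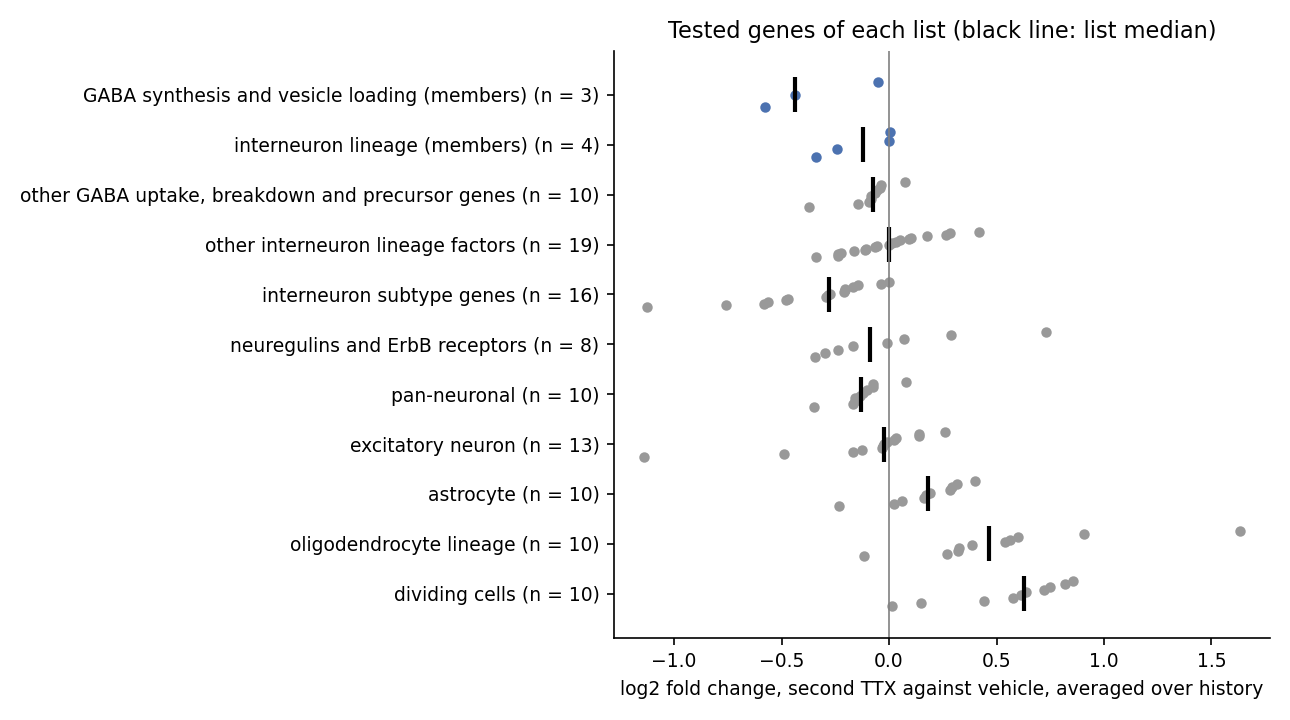
Log2 fold change with the second TTX averaged over history (horizontal axis) for the tested genes of 11 lists (rows, with their number); points are genes, blue for the members, and black lines are list medians. Subtype genes lie below 0 with a median of -0.28, other lineage factors centre near 0, and genes of dividing cells lie above 0 with a median of 0.63.

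Marker lists of other cells were summed in the same libraries, and no marker passed the threshold. Genes of dividing cells summed to 158 to 192 CPM with vehicle and 215 to 280 CPM with TTX, and 10 of 10 lay above 0 (9 of 10 without HH replicate 1). Markers of the oligodendrocyte lineage summed to 513 to 697 and 725 to 901 CPM. Of these, 9 of 10 lay above 0 (10 of 11 without that library). The ranges overlapped for astrocyte markers (1491 to 1841 and 1759 to 2130 CPM) and for pan-neuronal markers (4201 to 6262 and 3964 to 4791 CPM). Astrocyte markers lay above 0 in 9 of 10 (7 of 10 without that library). Pan-neuronal markers lay below 0 in 9 of 10 (8 of 10 without it). Among all tested genes, 50.3% lay below 0 (49.2% without it). Striatal projection neurons, which also use GABA, carry the Gad genes too. Their 10 markers summed to 919 to 1228 and 1005 to 1166 CPM, with a median of 0.086. Set against the pan-neuronal sum, Gad1 was 51.2 to 79.7 CPM per 1000 with vehicle and 41.8 to 61.0 with TTX, and Gad2 62.8 to 70.9 and 46.2 to 71.6, so that on this scale the separation of Gad2 was lost through TT replicate 2. The part of these levels in the values of the members was not tested, and in such bulk libraries fewer cells of a type and less RNA per cell cannot be told apart.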

How the data were processed

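The deposited table, made by the authors, gives raw integer read counts per gene symbol for nascent RNA; the 8 columns of this series were used. The submitters' processing notes list Bowtie2, TopHat2, featureCounts and FastQC, and build rn6. No version, annotation or strand setting, nor the treatment of intronic reads, is recorded in the labels. If introns were left out, genes with long introns such as Erbb4 would hold fewer counts, and antisense transcripts may be mixed in. No gene lengths were used, so CPM does not rank genes by level. Each column was tied to a sample through the leading number of that sample's description, and 2 columns that fit none were left out. Groups and replicate numbers are those of the titles; no batch is labelled.

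In R 4.3.3, edgeR 4.0.16 filtered genes (filterByExpr), scaled libraries by TMM (trimmed mean of M values) and fitted 4 group means, leaving 4 residual degrees of freedom. Robust quasi-likelihood tests were adjusted over 11372 genes by Benjamini-Hochberg, with a threshold of 0.05. Standard errors were derived as |log2 change| divided by √F, so they and the 95% intervals draw on all 4 groups. Correlations used log2 CPM with a prior count of 2. The alternatives were RLE and upper-quartile scaling, no filter, DESeq2 1.42.0, limma-voom (limma 3.58.1), only the groups compared, a replicate block, each library left out, and HH replicate 1 together with HT replicate 1 left out. On counts simulated for 11372 genes, the second TTX averaged over history recovered 86.4% of genes changed 2-fold and HT against HH 67.2%, with false calls making up 8.05% and 8.02% of those called. Changes below 2-fold, such as those of Gad1 and Gad2, were not simulated, so their recovery is not known. No simulated library stood apart as HH replicate 1 did. Plots used matplotlib 3.10.9. Members, lists and alternatives were chosen with earlier results of these data known. Named genes are the members, the 4 of highest mean CPM and the 3 of smallest p in each related list, the 5 genes most like Gad1, Dlx1 and Erbb4, and Fos and Npas4. Some genes that this rule names are left out here.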

Additional observations from a re-analysis of the deposited data

How the results depend on the processing

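No member passed in any comparison under any of the alternatives run, and the lowest adjusted p of a member was 0.0528 (Gad1, second TTX averaged over history, without HH replicate 2). Of 558 recomputed values for 36 results on single members, 514 kept their direction and 44 did not. This count leaves out TH against HH and TT against HT for members other than Gad1 and Gad2. It also leaves out the interaction of Slc32a1, Dlx2 and Lhx6. Among the results left out, 2 turned without HH replicate 1. Erbb4 in TH against HH went from -0.19 to 0.13, and the interaction of Lhx6 from 0.099 to -0.00096. For Gad1 and Gad2, HT against HH, TT against TH, TH against HH, the interaction and both averages kept their direction throughout. The direction of the following values, all within their error of 0, turned, and the cause was not tested. With HH replicate 1 and HT replicate 1 both left out, they were -0.057 (Dlx1, averaged history), -0.020 (Dlx1, averaged second TTX), -0.0024 (Erbb4, TT against TH) and 0.069 (Gad1, TT against HT). With RLE scaling they were -0.0019 (Dlx1, averaged second TTX), -0.00088 (Erbb4, TT against TH) and -0.00035 (Slc32a1, HT against HH). For Erbb4 in TT against TH they were -0.0037 with upper-quartile scaling and -0.0022 with only the groups compared. DESeq2 gave -0.00014 (Dlx1, averaged second TTX), and limma-voom gave -0.0081 (Gad2, TT against HT) and 0.0019 (Lhx6, averaged second TTX).

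With each library left out in turn, the averaged second TTX ran from -0.062 to 0.081 for Dlx1, -0.13 to 0.10 for Lhx6 and -0.25 to 0.21 for Slc32a1. The averaged history ran from -0.015 to 0.13 for Dlx1 and -0.073 to 0.21 for Erbb4. TT against HT ran from -0.22 to 0.073 for Gad1 and -0.19 to 0.18 for Gad2. HT against HH ran from -0.30 to 0.16 for Lhx6 and -0.16 to 0.17 for Slc32a1. TT against TH ran from -0.20 to 0.24 for Erbb4, -0.10 to 0.20 for Lhx6 and -0.52 to 0.41 for Slc32a1. In such fits a lone library is assumed to vary like the other groups.

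Over all genes, 0 were called in each comparison (edgeR), but 16 for the averaged second TTX with no filter on low counts and 12 with DESeq2. Leaving out 1 library gave 0 to 39 calls in HT against HH, 0 to 121 in TH against HH, 0 to 104 for the averaged history, 0 to 8 for the averaged second TTX, 0 to 2 for the interaction and 0 to 1 in TT against TH. The highest counts of the first 5 came without HH replicate 2, when HH replicate 1 was the only HH library. Replicate numbers gave 2 pairs at most, whose deviations correlated at 0.45 for HH with HT and at -0.066 to 0.087 for the other 5 pairs of groups; the labels do not say what a shared number stands for. With the replicate block, 0 genes were called in each comparison, and the averaged second TTX stood at -0.56 for Gad1 (adjusted p = 0.231, edgeR) and -0.43 for Gad2 (adjusted p = 0.388, edgeR).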
